A study of Homo sapiens with 6 samples.

Results

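Transcripts of 8 mucin genes were followed in the human lung cancer cell line H358: MUC1, MUC4, MUC13, MUC15, MUC16, MUC20, MUC5AC and MUC5B. The genes were taken by symbol from a table of read counts for 57445 genes, and all 8 passed the filter on low counts that left 17129 genes for testing. RNA sequencing covered 3 groups of 2 libraries. The parental line, called WT below, is listed as BRMS1 WT. Both clones, C1 and C2, are listed as isogenic lines of the genotype BRMS1v2 A273V/A273V. BRMS1 is a metastasis suppressor of the SIN3-HDAC co-repressor complex. All cells grew in RPMI with serum and carried no other treatment or allele per the labels. C1 and C2 are each a single clone, so what belongs to the variant and what belongs to a clone cannot be told apart within either. How the clones were derived, and whether replicates 1 and 2 came from separate cultures or share a day or batch, is not in the labels. P-values therefore measure only the spread between these libraries. Both clones were compared with the same WT libraries.

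Mucins are large glycoproteins whose central domains are rich in serine, threonine and proline and carry dense O-linked sugars. MUC1, MUC4, MUC13, MUC15, MUC16 and MUC20 are tethered to the cell membrane, where they form the glycocalyx of airway and other epithelia and can bind receptor tyrosine kinases. MUC5AC and MUC5B are the secreted, gel-forming mucins of airway mucus. Several of them are used as carcinoma antigens, MUC16 as CA125 and MUC1 as CA15-3.

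In the longest coding transcripts of GENCODE 29, serine and threonine codons made up between 23.4% of codons in MUC15 and 38.3% in MUC4. Each coding sequence was searched at the unit length, from 15 to 90 bases, at which it best matched itself. Units with at least 5 identical copies, adjacent or not, were found in 5 of the 8. Longer units were not searched, and in MUC16 repeated stretches were most often 465 bases apart. The commonest unit at that length is shown for each of the 5, because repeats make up the mucin domain and bear on how uniquely a short read can be placed. Capitals mark codons for serine or threonine, in the reading frame of the transcript.
MUC1: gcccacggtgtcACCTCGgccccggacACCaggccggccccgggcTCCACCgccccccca
MUC4: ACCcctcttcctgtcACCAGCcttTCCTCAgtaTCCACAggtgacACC
MUC20: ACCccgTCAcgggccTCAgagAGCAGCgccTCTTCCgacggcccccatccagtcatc
MUC5AC: AGCcctgttcccACCACCAGCACA
MUC5B: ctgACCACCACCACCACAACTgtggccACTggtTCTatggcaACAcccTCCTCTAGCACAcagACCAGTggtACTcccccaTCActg
The MUC1 unit is 60 bases long and stood in 19 identical copies, the MUC4 unit 48 bases in 14 copies, and the MUC20 unit 57 bases in 10 copies. The MUC5AC unit is 24 bases long with 15 identical copies, and the MUC5B unit 87 bases with 5. Of all 50-base words in the transcript, the length of 1 read, 42.4% occurred more than once within MUC1, 29.2% within MUC5B, 28.3% within MUC4 and 1.07% within MUC16. MUC13 and MUC15 held no repeated word. Sharing with other genes was 0% for MUC1, MUC4, MUC13 and MUC16, 0.379% for MUC5AC, 2.30% for MUC5B and 2.58% for MUC15, but 69.1% for MUC20, which shares sequence with the transcript MUC20-OT1 and the pseudogene MUC20P1.

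The windows of 250 bases before the transcription start are shown for the members that passed the test below and have an entry in the RefSeq promoter table (GRCh38.p14), in which 4 of the 8 members were matched. Each is given 5′ to 3′ on its own strand, and capitals mark the AP-1 motif TGANTCA.
MUC13, chr3:124934752-124935001, minus strand: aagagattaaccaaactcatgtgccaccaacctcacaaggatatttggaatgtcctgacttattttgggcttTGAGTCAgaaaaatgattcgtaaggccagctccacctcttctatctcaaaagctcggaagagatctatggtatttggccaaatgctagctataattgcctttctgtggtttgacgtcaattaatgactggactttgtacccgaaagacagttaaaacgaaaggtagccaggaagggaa
MUC4, chr3:195811930-195812179, minus strand: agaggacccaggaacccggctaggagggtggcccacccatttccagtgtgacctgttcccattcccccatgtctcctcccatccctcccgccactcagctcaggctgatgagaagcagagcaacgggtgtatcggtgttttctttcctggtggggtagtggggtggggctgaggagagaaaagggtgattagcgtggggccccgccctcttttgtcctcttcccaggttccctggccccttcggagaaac
MUC1, chr1:155192916-155193165, minus strand: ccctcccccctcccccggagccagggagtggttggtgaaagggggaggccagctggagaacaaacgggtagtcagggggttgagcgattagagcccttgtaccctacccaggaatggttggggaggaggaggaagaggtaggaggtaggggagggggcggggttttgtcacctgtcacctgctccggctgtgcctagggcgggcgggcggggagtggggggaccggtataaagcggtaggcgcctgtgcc
Each motif was searched on both strands, with positions counted back from the start. MUC13 held a single AP-1 match, TGAGTCA at -178, and AP-1 matches were present in 6.573% of 35116 RefSeq windows of this length. The STAT motif TTCNNNGAA, present in 6.567% of windows, matched the MUC4 window at -11. The GC box GGGCGG, present in 42.639% of windows, matched MUC4 at -49 and MUC1 at 4 places, of which those at -54, -50 and -46 each overlap the next. No printed window held the FOXA motif TGTTTAC, which 2.979% of windows have. Likewise none held the GATA motif AGATAA, found in 9.167% of windows, or the NKX2-1 motif CAAGTG, found in 9.500%. Of the 4 matched genes MUC16 is the one not printed: its first start had a GC box at -47, and a second annotated start had an AP-1 match at -136. These matches describe letters only.

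In both clones MUC4, MUC13 and MUC20 transcripts were higher than in WT and MUC15 transcripts were lower, by 2.24- to 9.36-fold, while MUC1 was 2.46-fold lower in C1. These calls came from edgeR's quasi-likelihood test at an adjusted p below 0.05, with replicate number entered as a blocking term; such values are termed blocked. Blocked, 5 of 8 members passed in C1, 3 higher and 2 lower, where 7.03% of all tested genes passed. In C2 4 of 8 passed, 3 higher and 1 lower, against 4.54% of all genes. The mucins were chosen with earlier results of these data known, so these counts are a description and no test of the set. Without the block, 0 of 8 passed in either clone, against 0.0117% of genes in each. At an unadjusted p below 0.05 the unblocked test had 5 of 8 members in C1, beside 7.87% of genes, and 5 of 8 in C2, beside 6.75%. DESeq2 without the block called 3 members in C1 (MUC4, MUC13 and MUC20) and 2 in C2 (MUC4 and MUC13). Of all 17129 genes it called 270 in C1 and 209 in C2. The blocked median log2 difference of the 8 was 0.91 in C1 and 0.82 in C2, where the median of all genes was -0.01 and -0.00. In bulk RNA, fewer cells expressing a gene and less RNA per cell cannot be told apart.

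**Figure D1:**
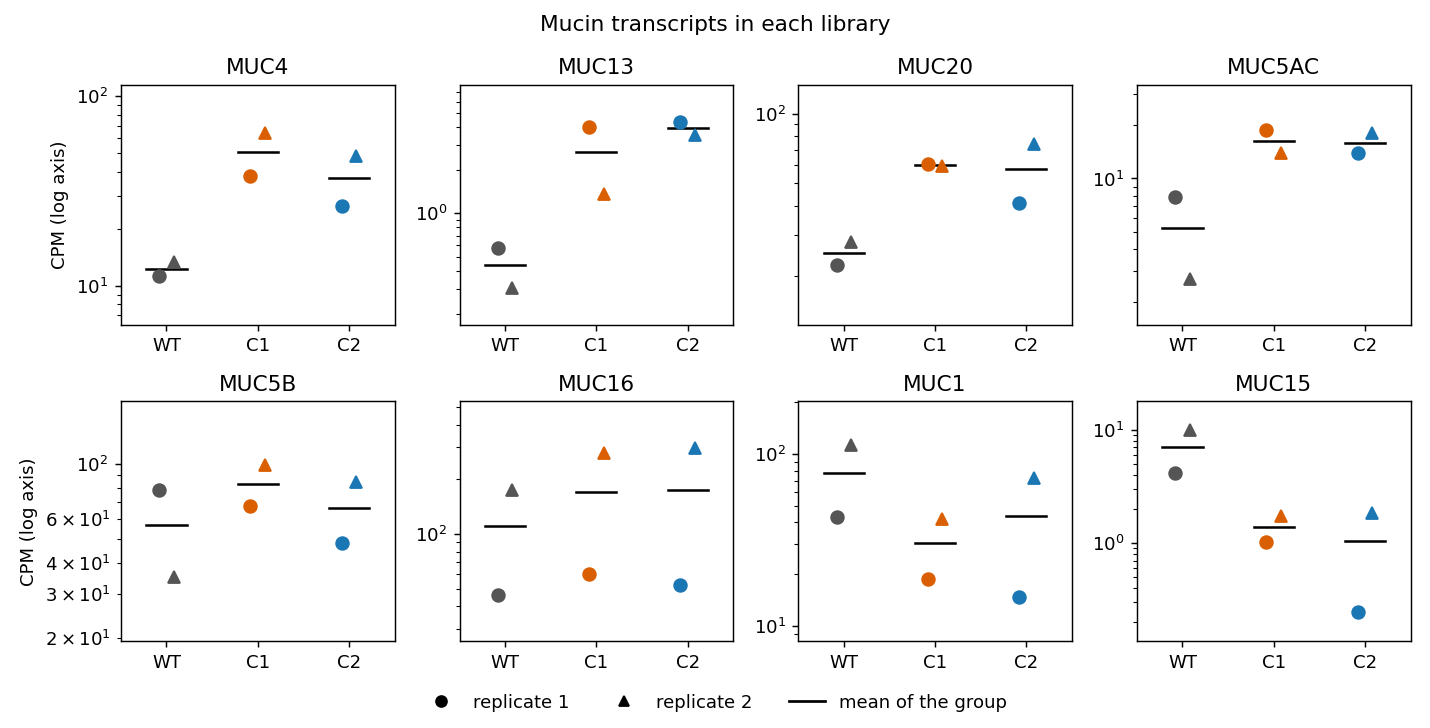
CPM (read counts scaled to library size, log axis) of each mucin in the 6 libraries, with circles for replicate 1, triangles for replicate 2 and a line at the group mean. MUC4, MUC13, MUC20 and MUC5AC lie higher in all 4 clone libraries than in both WT libraries, MUC15 lies lower, and MUC16 splits by replicate number.

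MUC4 is a membrane mucin that binds the receptor ERBB2. Its level was 11.3 and 13.4 CPM in WT replicates 1 and 2, 37.8 and 63.8 in C1, and 26.3 and 48.2 in C2. All 4 clone libraries lay above both WT libraries, and the WT pair was the tightest of the 3 groups. The log2 difference was 1.99 ± 0.19 (SE) in C1, a 3.98-fold rise, with a blocked adjusted p of 5.61e-05 and an unblocked one of 0.209. In C2 it was 1.53 ± 0.19, a 2.90-fold rise, with adjusted p of 4.84e-04 blocked and 0.404 unblocked. Blocked fits without 1 library have 1 residual degree of freedom, and where they leave a group with 1 library its spread is taken from the other groups, so a call kept there is no sign of stability. Over the 6 such fits the C1 difference ran from 1.72 to 2.29 and the C2 difference from 1.26 to 1.82. The C2 call was lost when either C2 library was left out.

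MUC13, a membrane mucin best known from the gut, was close to the detection limit in WT, with 18 and 9 counts. C1 had 142 and 41 counts and C2 had 124 and 113. On the CPM scale WT stood at 0.576 and 0.303, C1 at 4.01 and 1.37, and C2 at 4.35 and 3.50. Every clone library lay above both WT libraries, and C1 replicate 2 was the lowest of the 4. MUC13 rose by a log2 difference of 2.54 ± 0.41 in C1 (adjusted p 0.00267 blocked, 0.354 unblocked) and 3.23 ± 0.41 in C2 (5.35e-04 blocked, 0.323 unblocked). It had the largest positive difference of the 8 in each clone, on the lowest WT counts. Without C2 replicate 1 the blocked adjusted p in C1 was 0.0516, and the C2 call was lost without either C2 library.

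MUC20 is a small membrane mucin reported to bind the receptor MET. WT stood at 22.2 and 28.0 CPM, C1 at 60.9 and 59.4, and C2 at 41.0 and 73.8. The lowest clone library, C2 replicate 1, still lay above the highest WT library. MUC20 rose by 1.29 ± 0.20 log2 in C1 (adjusted p 0.00313 blocked, 0.354 unblocked) and by 1.16 ± 0.20 in C2 (0.00721 blocked, 0.469 unblocked). The C2 call was again lost without either C2 library, and over the 6 blocked fits without 1 library the C1 difference ran from 0.96 to 1.59.

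The MUC20 counts share sequence with their neighbours, so the members of that locus were read side by side. MUC20-OT1, listed in the table as LINC00969, overlaps MUC20 on the same strand over 1820 of its 4249 exon bases. Its counts were 764 and 485 (WT), 909 and 645 (C1), and 842 and 822 (C2), and its blocked log2 differences of 0.23 and 0.45 did not pass. The pseudogene MUC20P1, listed as AC069213.1, had 73 and 100 counts (WT), 233 and 193 (C1), and 133 and 254 (C2). Its blocked log2 difference was 1.23 (adjusted p 0.019) in C1 and 1.12 (0.039) in C2, close to the values of MUC20 itself. Reads without a unique alignment, and reads ambiguous between genes, were tallied apart and credited to no gene. Whether any reads still counted for MUC20 came from MUC20P1 was not tested.

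MUC15, a small membrane mucin first described in milk, moved the other way. Its level was 4.19 and 9.89 CPM (WT), 1.02 and 1.74 (C1), and 0.246 and 1.86 (C2), with counts of 131 and 294, 36 and 52, and 7 and 60. Each clone library lay below both WT libraries, and C2 replicate 1 was the lowest. MUC15 fell by 2.28 ± 0.39 log2 in C1 (adjusted p 0.00539 blocked, 0.595 unblocked) and by 2.89 ± 0.41 in C2 (0.00221 blocked, 0.665 unblocked). The C2 call was lost without either C2 library, and the C1 difference ran from -2.73 to -1.79 over the 6 blocked fits without 1 library. ANO3, which overlaps 175 of the 3556 MUC15 exon bases on the opposite strand, had at most 9 counts in any library.

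MUC1 is the widely expressed membrane mucin of secretory epithelia. It stood at 42.9 and 112 CPM (WT), 18.7 and 41.8 (C1), and 14.7 and 72.5 (C2). Both C1 libraries lay below both WT libraries, by a small margin for C1 replicate 2, and the C2 libraries overlapped WT. MUC1 fell by 1.30 ± 0.25 log2 in C1 with a blocked adjusted p of 0.018, against 0.809 unblocked. The C1 call was lost without either WT library, with a largest adjusted p of 0.0900, and kept its direction in 6 of 6 fits. In C2 the difference was -1.04 ± 0.25 and did not pass, with adjusted p of 0.0559 blocked and 0.959 unblocked. Within replicate numbers, MUC1 was lower in the clone in each of the 4 pairs, by log2 differences of -1.19 and -1.42 in C1 and -1.54 and -0.63 in C2, a pattern that 21.8% of all genes showed.

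MUC16, the largest member with 43830 exon bases, took the most counts of the 8 in 4 of the 6 libraries. WT stood at 46.2 and 176 CPM, C1 at 60.4 and 280, and C2 at 52.2 and 298. The values split by replicate number and not by clone: every replicate 2 lay above every replicate 1, and the clones overlapped WT. The blocked log2 difference was 0.52 ± 0.16 in C1 (adjusted p 0.0719) and 0.47 ± 0.16 in C2 (0.121), and neither passed. Unblocked adjusted p were 0.967 and 0.995. Each clone library lay above the WT library of its number, by 0.39 and 0.67 in C1 and 0.18 and 0.76 in C2, as did 22.9% of all genes.

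MUC5AC, the gel-forming mucin induced in goblet cells, had 7.83 and 2.69 CPM (WT), 18.7 and 13.9 (C1), and 13.9 and 17.9 (C2). All 4 clone libraries lay above both WT libraries. The blocked log2 differences were 1.70 ± 0.41 (95% interval 0.73 to 2.67) in C1 and 1.72 ± 0.42 (0.74 to 2.71) in C2. Neither passed, with adjusted p of 0.0562 and 0.0715 blocked and 0.520 and 0.635 unblocked. For the mean of the clones the blocked value was 1.71 ± 0.38 with an adjusted p of 0.0338.

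MUC5B, the constitutive gel-forming mucin of the airway, had 78.6 and 35.1 CPM (WT), 68.0 and 98.5 (C1), and 48.4 and 84.5 (C2). Groups overlapped in each comparison. Its blocked log2 difference was 0.53 ± 0.67 in C1 (adjusted p 0.748) and 0.20 ± 0.67 in C2 (0.918), with intervals from -1.75 to 2.80 and from -2.09 to 2.5. The WT libraries had the reverse order of the clone libraries, which left MUC5B with the widest blocked SE of the 8. MUC5B-AS1, on the opposite strand, had no count in any library.

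**Figure D2:**
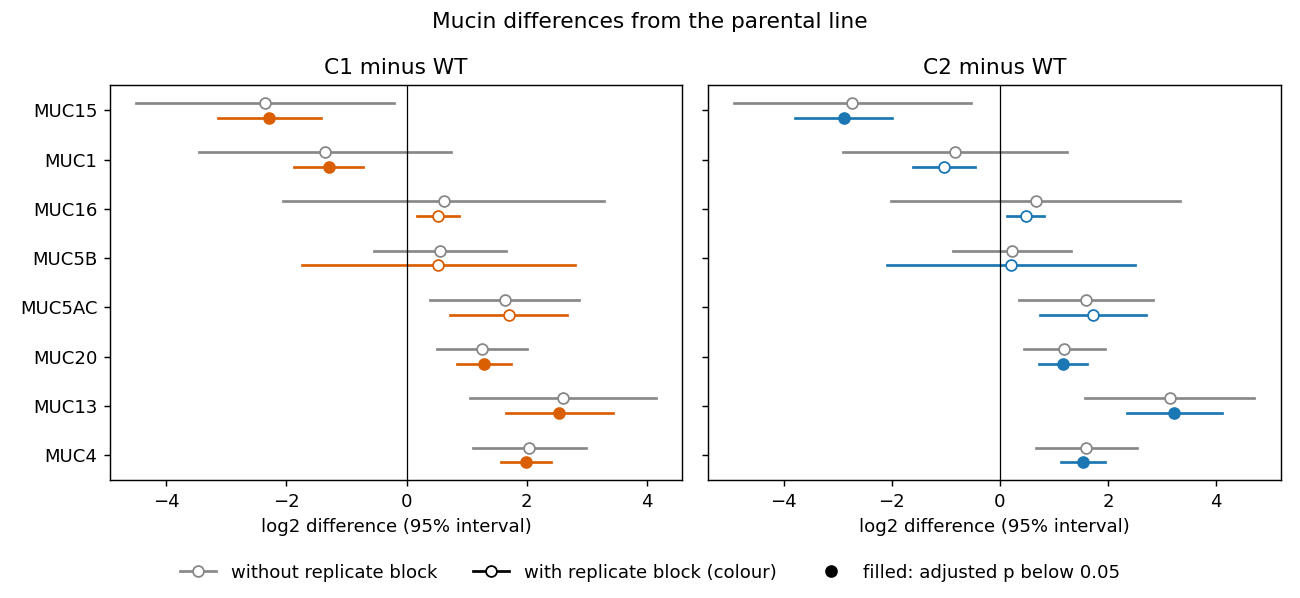
Log2 difference from WT (x axis) of each mucin in C1 (left) and C2 (right), with 95% intervals; grey points are unblocked, coloured points blocked, and filled points passed an adjusted p below 0.05. The centres of the 2 fits lie close together, and the blocked intervals are narrower for all members but MUC5B.

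Over the mean of both clones against WT, 7 of 8 members passed with the block, 5 higher and 2 lower, where 9.74% of genes passed. Those not called for both single clones were MUC1, lower by 1.17 ± 0.21 (adjusted p 0.00981), MUC5AC, and MUC16, higher by 0.50 ± 0.14 (0.0436). Unblocked, 0 of 8 passed, beside 0.198% of genes, with 5 of 8 at an unadjusted p below 0.05, beside 9.79% of genes. DESeq2 without the block called 5 of 8, beside 393 of all 17129 genes. In blocked fits without 1 library, MUC5AC lost this call without either C2 library and MUC20 without C2 replicate 2. MUC1 lost it without WT replicate 1, WT replicate 2 or C2 replicate 1, and MUC16 without WT replicate 2 or either C2 library.

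Without a model, CPM values of the clone and WT did not overlap for 6 members in C1 and 5 in C2. MUC4, MUC13, MUC20 and MUC5AC were higher in both, where 17.5% of all genes were higher without overlap in each clone. MUC15 was lower in both and MUC1 in C1, where 17.6% of genes in C1 and 17.3% in C2 were lower without overlap. These shares are each for a single clone, and the share of genes without overlap in both clones at once is not reported here.

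No difference between the clones passed the test at the 8 genes: 0 were called in C2 against C1 by edgeR with or without the block or by DESeq2, where 0% of genes passed in edgeR. At an unadjusted p below 0.05 there was 1 of 8 members with the block, MUC4, beside 3.75% of genes, and 0 without it, beside 0.356%. MUC4 was lower in C2 by 0.46 ± 0.18 log2, with a blocked interval from -0.85 to -0.06 and an adjusted p of 1. Blocked intervals for the other two that rose in both clones were -0.04 to 1.41 for MUC13 and -0.56 to 0.31 for MUC20. For MUC15 it was -1.57 to 0.35 and for MUC1 -0.32 to 0.84. All 8 genes overlapped between the clones, beside 14.6% of genes without overlap.

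Mucins also differed by replicate number. Replicate 2 against replicate 1 over the 3 groups was called for 5 of 8 members, 4 higher and 1 lower, where 24.7% of genes were called. MUC16 was 3.80-, 4.63- and 5.71-fold higher in replicate 2 of WT, C1 and C2, a log2 difference of 2.22 ± 0.14 (adjusted p 9.20e-07), and did not overlap between the numbers, as was so of 17% of genes in this direction. MUC1 was 2.61-, 2.23- and 4.94-fold higher, a log2 difference of 1.61 ± 0.21 (8.33e-04). MUC15 rose by 1.43 ± 0.33 (0.00958) and MUC4 by 0.64 ± 0.15 (0.00885), while MUC13 fell by 0.90 ± 0.30 (0.0468). MUC4 and MUC15 lost this call without either C2 library, and MUC13 without either C1 or either C2 library. The values of MUC20, MUC5AC and MUC5B did not pass. MUC4 was thus higher with both the clones and the number, and MUC1 and MUC15 were lower in a clone and higher in replicate 2. Proliferation genes moved with the number too: the 33 listed summed to 5383 and 2202 CPM (WT), 5299.7 and 747 (C1), and 6179.8 and 1901 (C2). Of the 33, 10 were called lower in replicate 2 and 0 higher, beside 2088 lower and 2141 higher of all 17129 genes. The part of the proliferation genes in the mucin values was not tested.

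**Figure D3:**
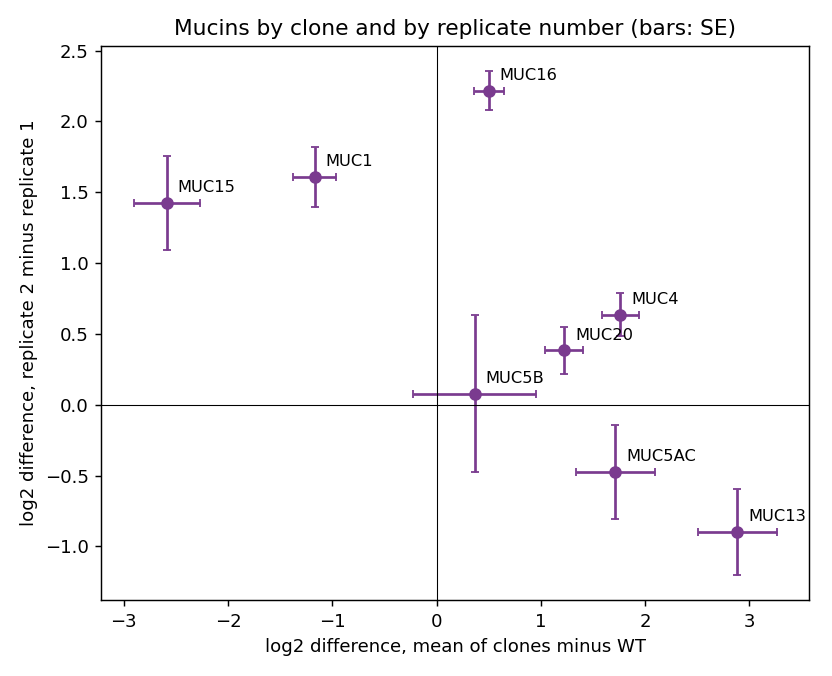
Log2 difference of the clone mean from WT (x axis) against that of replicate 2 from replicate 1 (y axis), both from the blocked edgeR fit, with bars for the SE. MUC15 and MUC1 lie to the left and high, MUC16 high near the centre, and MUC13 and MUC5AC to the right and low.

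Per kilobase of exon, the order of the levels differed between WT and the clones. Lengths are the union of GENCODE 29 exons, which is not the annotation behind the counts, so these levels are approximate. Repeated or shared sequence, where reads may not be placed uniquely, was not taken off the lengths. It covers 42.4% of 50-base words in MUC1 and 69.1% in MUC20, but 0% in MUC13. Its part in the order between genes was not tested. In WT, MUC1 was at the top with 16.4 ± 10.4 CPM per kb (SD, n = 2), followed by MUC20 at 5.91 ± 0.977, MUC5B at 3.06 ± 1.66, MUC16 at 2.53 ± 2.09 and MUC15 at 1.98 ± 1.13. MUC4 at 0.578 ± 0.0709, MUC5AC at 0.302 ± 0.208 and MUC13 at 0.126 ± 0.0551 came last. Neighbours in that order overlapped from MUC5B to MUC15 and between MUC5AC and MUC13, and the other neighbours did not. In C1, MUC20 stood at 14.2 ± 0.241 and above MUC1 at 6.42 ± 3.46, and in C2 at 13.5 ± 5.46 and 9.24 ± 8.67, which overlap. MUC15 was the lowest in each clone, at 0.387 ± 0.143 in C1 and 0.296 ± 0.320 in C2. It overlapped MUC13 in C1, while in C2 both its libraries lay below those of MUC5AC at 0.913 ± 0.164, the next in order. MUC13 reached 0.769 ± 0.534 in C1 and 1.12 ± 0.173 in C2. The 8 genes together took 0.0217% and 0.0407% of all counts (WT), 0.0257% and 0.0562% (C1), and 0.0192% and 0.0597% (C2), so their sum was higher in replicate 2 of each group.

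Of 15 other listed genes of mucins and mucin-like proteins, 4 passed the filter on low counts: MUCL1, OVGP1, CD164 and MCAM. CD164, a small sialomucin of many cell types, was abundant at 5632 to 7376 counts, or 188 to 234 CPM, and its blocked log2 differences of 0.21 and 0.08 did not pass. OVGP1, the oviductal glycoprotein, had 140 to 308 counts and MCAM, an adhesion molecule, 3 to 32, and neither passed. The gel-forming MUC2, the main intestinal mucin, had at most 9 counts in a library, and MUC6, the gastric gland mucin, had 1 count in all. MUC17, a gut membrane mucin, and EMCN, an endothelial one, had none, which allows up to 0.109 CPM in the shallowest library. MUCL1, a small mucin-like gene of breast tissue, had 20 and 28 counts (WT), 40 and 66 (C1), and 39 and 143 (C2). It rose in C2 by 1.74 ± 0.38 log2 (adjusted p 0.020 blocked, 0.706 unblocked), and the 1.04 ± 0.38 in C1 did not pass. MUCL1 was also called higher in replicate 2, by 1.13. MUC21, a membrane mucin of stratified epithelia and of some lung adenocarcinomas, had 2 and 3 counts (WT), 3 and 15 (C1), and 0 and 10 (C2).

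Enzymes that build mucin O-glycans were higher more often than lower in the clones. The list held 29 genes, of which 27 were tested. It was chosen with earlier results of these data known, so its counts beside those of all genes are a description only. Blocked, C1 had 7 higher and 1 lower and C2 had 5 higher and 0 lower, with median log2 differences of 0.41 and 0.43. Of all genes, 2.96% were called higher and 4.07% lower in C1, and 1.94% and 2.59% in C2. Unblocked, 0 of the 27 passed in either clone. ST3GAL1, the sialyltransferase that caps core 1 O-glycans, had 109 and 193 counts (WT), 759 and 666 (C1), and 590 and 842 (C2). That was a rise of 2.18 ± 0.24 log2 in C1 and 2.26 ± 0.24 in C2, with no overlap with WT. ST6GALNAC1, which makes the sialyl-Tn antigen, rose by 1.79 ± 0.15 and 1.27 ± 0.15, and was also higher in replicate 2 by 2.16. B3GNT6, which makes core 3 O-glycans, rose by 1.70 ± 0.25 and 1.13 ± 0.25, and was also higher in replicate 2 by 1.42. GALNT5, which starts O-glycosylation, rose by 1.63 ± 0.18 and 1.65 ± 0.18. By replicate number, 5 of the 27 were called higher and 5 lower, beside 2141 higher and 2088 lower of all 17129 genes.

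**Figure D4:**
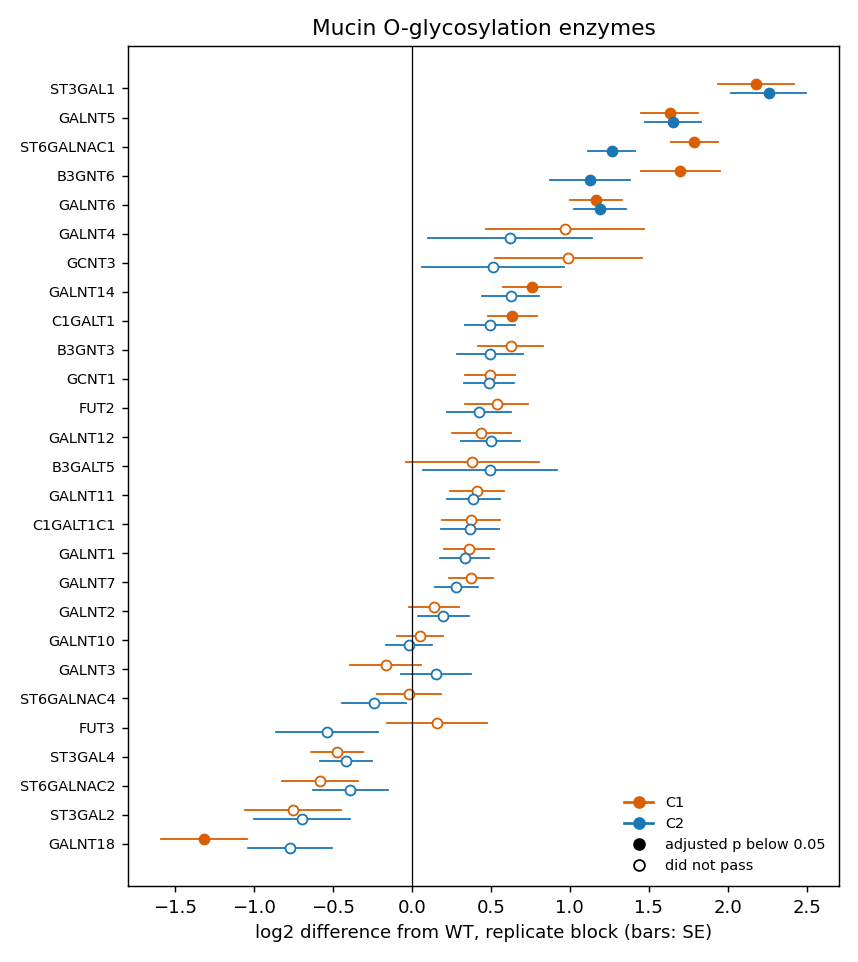
Blocked log2 difference from WT (x axis, bars for the SE) of the 27 tested O-glycosylation genes in C1 (orange) and C2 (blue), with filled points for an adjusted p below 0.05. ST3GAL1, GALNT5, ST6GALNAC1, B3GNT6 and GALNT6 are filled to the right in both clones and GALNT18 is filled to the left in C1.

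Of 22 genes for packaging and secreting mucus, 12 were tested. Blocked, 3 rose in C1 and 2 in C2 and 0 fell in either, beside the shares of all genes given above (2.96% higher and 4.07% lower in C1, 1.94% and 2.59% in C2). For the mean of the clones 3 rose and 2 fell, beside 9.74% of genes in either direction. Those lower were AGR3 and CLCA2. AGR3, of the disulfide isomerase family, had a log2 difference of -1.11 (adjusted p 0.0379). CLCA2, a regulator of chloride currents, stood at -1.51 (0.0432). SYTL2, a granule tethering protein, rose by 1.11 ± 0.17 and 0.87 ± 0.17, and VAMP8, a SNARE of mucin granule release, by 0.76 ± 0.15 and 0.72 ± 0.15. SLC26A4, an anion exchanger, rose in C1 by 2.38 ± 0.67 (adjusted p 0.048) on 3 and 2 counts in WT and 12 and 17 in C1. No counts were found for TFF2, TFF3, ERN2 or BPIFA1. The median blocked difference of the 12 was 0.23 in C1 and 0.28 in C2, and unblocked 0 passed. AGR3 and SYTL2 were also called higher in replicate 2, by 1.92 and 0.51.

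Of 24 transcription factors known from mucous or airway epithelial cells, 21 were tested. Blocked, C1 had 3 higher and 1 lower and C2 had 2 higher and 1 lower, with medians of 0.31 and 0.25. Of all genes, 2.96% were higher and 4.07% lower in C1 and 1.94% and 2.59% in C2, so the count of lower members was near that of all genes. CREB3L1, a membrane-bound factor of secretory cells, rose by 2.02 ± 0.22 and 1.56 ± 0.22, on 156 and 228 counts (WT), 681 and 984 (C1), and 330 and 907 (C2). FOXA1, a pioneer factor of airway epithelium, rose by 0.65 ± 0.15 and 0.60 ± 0.15, and ELF3, an epithelial ETS factor, by 0.64 ± 0.14 in C1. FOXA3, which acts in goblet cells, fell by 2.04 ± 0.44 and 2.05 ± 0.45 on 20 and 68 counts in WT against 5 to 17 in the clones. SPDEF, the goblet cell regulator, had 71 and 58 counts (WT), 106 and 392 (C1), and 55 and 539 (C2). Its 2 high libraries were replicate 2 of each clone, and its differences of 1.43 ± 1.01 and 1.47 ± 1.04 did not pass (adjusted p 0.548 and 0.575). NKX2-1, the lung lineage factor, was at 0.07 and 0.10 and did not pass, and HNF4A and CDX2 had no count. Without the block 0 of 21 passed. CREB3L1, ELF3 and FOXA3 were also called higher in replicate 2, by 0.90, 0.55 and 1.69.

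Receptors, sheddases and ligands that act with mucins were nearly all expressed, with 18 of 18 tested, of which 3 rose in C1 and 2 in C2 and 0 fell, blocked. Among all genes these shares were 2.96% higher and 4.07% lower in C1, and 1.94% and 2.59% in C2. MMP14, a membrane protease that can shed MUC1, rose by 1.14 ± 0.25 and 1.07 ± 0.25, and the mucin-binding lectin LGALS3 by 0.84 ± 0.14 and 0.57 ± 0.14. ERBB3, partner of the MUC4 receptor ERBB2, rose by 0.77 ± 0.14 in C1, and its 0.47 ± 0.14 in C2 did not pass. Medians were 0.10 and 0.13, and unblocked 0 of 18 passed. LGALS3 and ERBB3 were also called higher in replicate 2, by 0.88 and 0.47.

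Each mucin was set against the nearest 2 tested genes on either side in the GENCODE 29 order. MUC4 and MUC20 are neighbours of each other on chromosome 3, and both rose. AC124944.5 (LINC01983), on the far side of MUC4, had 3 and 6 counts in WT and a blocked difference of 2.07 in C1 (adjusted p 0.049) and 1.65 in C2 (0.149). MUC5AC and MUC5B are adjacent on chromosome 11 with blocked differences of 1.70 and 0.53 in C1. None of the other neighbours passed in either clone with the block. Around MUC13, ITGB5 and HEG1 stood at 0.42 and -0.14 in C1, beside 2.54 for MUC13. Around MUC1, TRIM46 stood at -0.28 and the next tested gene on the other side, RP11-263K19.4, at -0.72, beside -1.30. By replicate number THBS3 near MUC1, HEG1 and SLC12A8 near MUC13, LUZP2 and SVIP near MUC15, and ZNF558 near MUC16 were called.

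**Figure D5:**
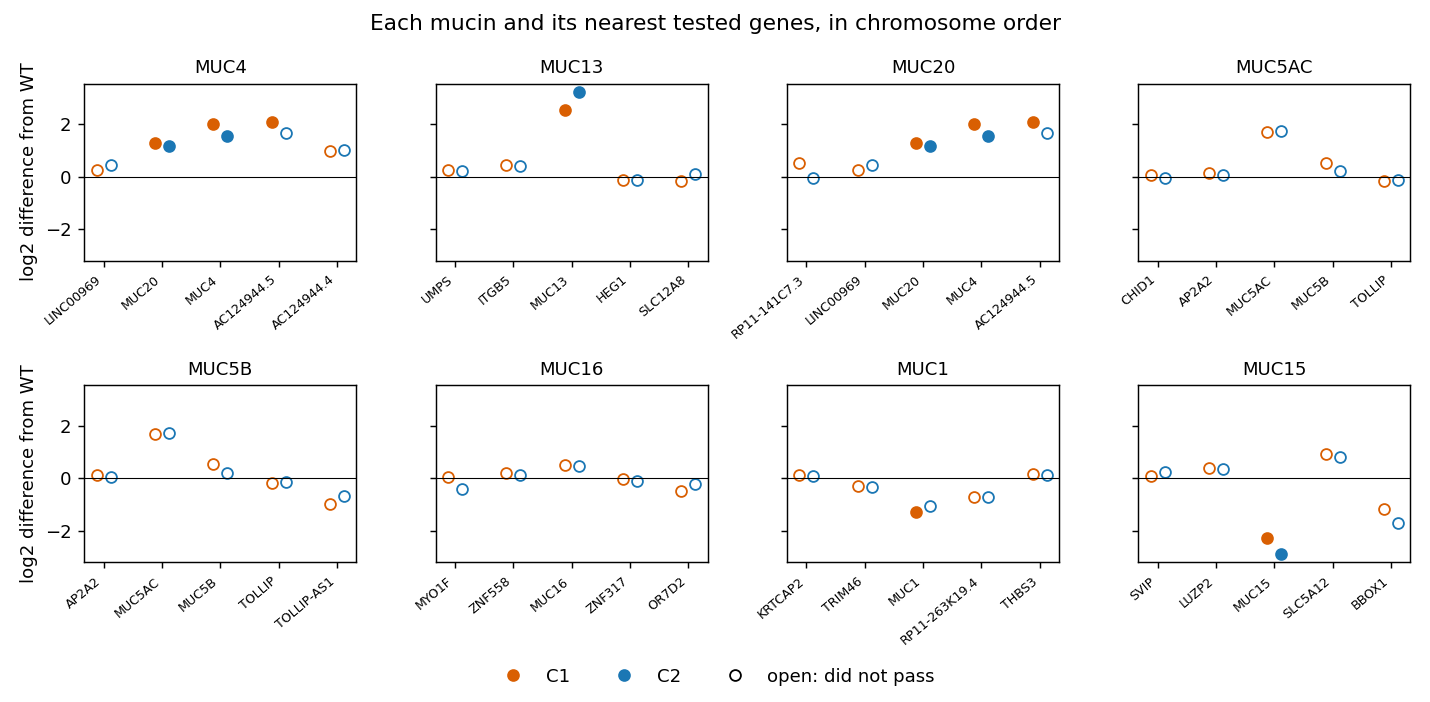
Blocked log2 difference from WT (y axis) of each mucin and its nearest 2 tested genes on each side, in chromosome order (evenly spaced, not to scale), for C1 (orange) and C2 (blue). Filled points passed an adjusted p below 0.05; apart from the mucins, AC124944.5 in C1 is the one filled neighbour.

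Among the mucins, MUC4 and MUC20 had the most alike profiles over the 6 libraries, with a root mean square difference of 0.37 between log2 CPM values centred on each gene's mean, and MUC13 and MUC15 the least alike at 2.86. Over 11972 genes with a mean log2 CPM of at least 1, genes close to MUC4 included PSG3 at 0.10 and ATG9B at 0.15, where PSG3 belongs to a family of near-identical genes and its counts are uncertain. Closest to MUC20 were MMP14 at 0.12, GSTA4 at 0.13 and FMO5 at 0.14. For MUC13 they were GPA33, a gut epithelial antigen, at 0.43, SPANXD at 0.44 and PRR5L at 0.47, and for MUC15 CP, which encodes ceruloplasmin, at 0.46, SLC2A3 at 0.53 and TMEM59L at 0.59. MEIS3 at 0.20, C3 at 0.21 and BFSP1 at 0.29 were closest to MUC1. SYT7 at 0.12 was closest to MUC16, DYSF at 0.31 to MUC5AC and PAQR6 at 0.19 to MUC5B. These likenesses come from 6 libraries that share their groups and numbers, and are given as descriptions.

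Gene counts per library lay between 27527867 and 37146270. The cells carried the markers of an epithelial line: all 10 epithelial markers were tested, summed to between 6222 and 8536 CPM, and 0 passed in either clone. Beside the marker counts given here, 7.03% of all tested genes passed in C1 and 4.54% in C2, blocked. Leukocyte markers summed to at most 2.38 CPM. Fibroblast markers summed to 39.4 to 70.6 CPM, nearly all from COL1A1 and LUM, and endothelial markers to 9.56 to 42.2, mostly from KDR, with CDH5 and KDR called higher in C1. Their part in the mucin results was not tested. Of 9 goblet cell markers 6 were tested, 1 of them called, CEACAM5 at 2.64 ± 0.16 in C1 and 2.04 ± 0.16 in C2, and TFF3 and ERN2 were at 0. Of 6 club cell markers, 1 was tested and 0 passed, and the defining SCGB1A1 and SCGB3A1 were at 0. Alveolar type 2 markers were mixed: the surfactant genes SFTPC and SFTPB had at most 2 counts in a library, while NKX2-1 stood at 65.1 to 155 CPM, ABCA3 at 3.61 to 59.1 and LAMP3 at 11.1 to 15.6, and the 10 summed to between 135 and 217 CPM. Of their 7 tested members, ABCA3 was higher in C1 by 1.06 (blocked adjusted p 0.0196) and NAPSA lower by 1.04 on the log2 scale (0.0329), with 0 passing in C2. CEACAM5, KDR and ABCA3 were also called higher in replicate 2, by 2.05, 1.15 and 3.12.

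Among basal and ciliated cell markers, 1 gene of each list passed in a clone. Of all tested genes, 7.03% passed in C1 and 4.54% in C2, blocked. The 6 basal markers summed to between 36.6 and 131 CPM, mostly from TP63 and KRT15, with KRT5 at or below 1 count. Their 4 tested members had median blocked differences of -1.81 in C1 and -1.09 in C2, and NGFR, a receptor of airway basal cells, fell in C1 by 2.76 ± 0.58 log2 (adjusted p 0.0262). In C2 its -1.94 ± 0.55 did not pass (0.0929). The other tested basal markers passed in neither clone and were mixed in direction. In C1 and C2, TP63 stood at -1.46 and -0.89 and KRT14 at -2.16 and -1.29. KRT15 went the other way, at 0.27 and 0.65. The 6 ciliated markers summed to between 33.1 and 87.2 CPM, all tested, with medians of 0.11 and -0.04. FOXJ1, the regulator of motile cilia, rose in both clones, by 1.46 ± 0.30 (0.0136) and 1.18 ± 0.30 (0.0466). The other 5 did not pass and were mixed in direction. In C1 and C2, TPPP3 stood at -1.32 and -1.30 and CAPS at -0.75 and -1.21. PIFO was at 0.58 and 1.28, RSPH1 at 0.21 and 0.05, and DNAH5 at 0.01 and -0.12. The part of these markers in the mucin results was not tested.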

How the data were processed

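RNA was sequenced from 6 libraries of H358 cells as 50-base read pairs, per the labels' protocols. The deposited values are raw read counts per gene, made with cutadapt 1.6, STAR 2.5.0a and HTSeq 0.5.3 on hg19, per the submitters' processing notes. The strand setting and annotation release are not given in the sources used here, so reads of a gene and its antisense partner cannot be told apart. From the counts, low genes were dropped by filterByExpr with the 3 groups, and CPM were computed after TMM scaling in edgeR 4.0.16 (R 4.3.3, limma 3.58.1), adding a prior count of 2 for log2 values. The test planned first was edgeR's robust quasi-likelihood F test on all 6 libraries with 1 mean per group, Benjamini-Hochberg adjustment over all 17129 genes and calls at an adjusted p below 0.05. It leaves 3 residual degrees of freedom. Standard errors were taken from the log2 difference and its p.

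The replicate number, taken from the sample titles, was set as a block in a further fit. Deviations from the group means correlated across genes between same-numbered libraries by 0.584 for WT and C1, 0.634 for WT and C2 and 0.701 for C1 and C2, all above the 0.1 required, and libraries of the same number were treated as pairs. No label supports this pairing, and deviations within a group of 2 mirror each other, so the blocked calls rest on an assumption. That fit has 2 residual degrees of freedom. Both fits were tested on simulated counts for C1 against WT over 16811 genes, with 200 drawn to change. Of those at a log2 change of 1, 60.2% were called without the block and 58.2% with it. At a change of 2, 88.3% were called with either, and of unchanged genes 13 and 12. The simulated counts held no replicate difference and used the spread from the blocked design. The real libraries do differ by number, so these shares do not give the power of the unblocked test here. Replicates were not copies: a chi-square of their counts came to at least 100 per gene. Alternatives were DESeq2 1.42.0, its size factors, other filters, only the groups compared, and leaving out each library.

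The mucins, gene lists and tests were chosen with earlier results of these data known. Named genes are the 8 mucins, up to 4 called members of each list with the largest absolute log2 difference, members of the lists of other mucins and of transcription factors with values, up to 3 tested genes most like each mucin (1 such gene is not reported here), and the nearest 2 tested genes on each side. Gene order, exon lengths and transcripts came from GENCODE 29, matched by gene ID for 97.3% of tested genes and not on hg19, so none of its coordinates are printed, and promoters came from RefSeq on GRCh38.p14.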

Additional observations from a re-analysis of the deposited data

Results flagged for a closer look

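MUC5B differed between the replicate numbers in how the clones compared with WT. In replicate 1 both clones lay below their WT library, by log2 differences of -0.21 in C1 and -0.70 in C2. In replicate 2 both lay above it, by 1.49 and 1.27. The mean clone difference was 1.83 larger in replicate 2 than in replicate 1. With 1 library per group and number, the difference was not tested.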

How the results depend on the processing

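No member of the 8 passed without the block by edgeR; the replicate block gave 5 in C1, 4 in C2 and 7 for the mean of the clones, and the block in DESeq2 gave 6, 6 and 7. Unblocked, DESeq2 gave 3, 2 and 5, and edgeR with no filter on low counts 3, 3 and 4. Genes called in C1 numbered 2, with 296 without the filter, 270 by DESeq2, 1204 with the block, 1152 with the block in DESeq2 and 1 with only the groups compared. In C2 the same settings gave 2, 209, 209, 777, 845 and 0, and for the mean of the clones 34, 436, 393, 1669 and 1532. C2 against C1 had 0 genes and 20 with the block in DESeq2. The cause was not tested.

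Leaving out each library, blocked or not, gave 0 to 7 members in C1, in C2 and for the mean, and 2 to 6 by replicate number. Genes called then ranged from 0 to 1776 in C1, 0 to 1756 in C2, 0 to 2277 for the mean, 0 to 343 in C2 against C1 and 617 to 4849 by number. Blocked fits gave 4 to 7 members in C1 and for the mean of the clones, and 0 to 7 in C2.

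With the block, 2 signs changed: MUC16 in C2 against C1 was -0.0494 in edgeR and -0.0491 in DESeq2, and MUC5AC 0.0256 and 0.0301. Leaving out libraries changed signs as follows, as ranges of the log2 difference. Against WT, MUC1 in C2 ran from -2.42 to 0.0284, MUC16 in C1 from -0.87 to 1.88, in C2 from -1.11 to 1.93 and for the mean from -0.24 to 1.90. MUC5B ran from -0.27 to 1.56 in C1, -0.63 to 1.21 in C2, -0.45 to 1.39 for the mean and -0.31 to 0.67 by number. In C2 against C1 the ranges were -1.08 to 1.26 for MUC1, -0.0336 to 1.49 for MUC13, -2.49 to 0.44 for MUC15, -1.74 to 1.53 for MUC16, -0.58 to 0.30 for MUC20, -0.73 to 0.61 for MUC5AC and -1.002 to 0.14 for MUC5B. MUC4, MUC13, MUC15, MUC20 and MUC5AC kept their direction against WT in every fit run. With 2 libraries per group, and MUC13 at 9 counts in 1 WT library, small differences were not detectable.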
